A study of Homo sapiens with 9 samples.

Results

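The genes of the IL6 cytokine family, its receptors and the STAT3 axis were read across CT, MC26 and M1B26 cells. The group was chosen by symbol and held 10 genes of the 60199 symbols in the count table. They were the ligands IL6, LIF and IL11, the receptors IL6R, IL6ST (gp130), LIFR and OSMR, the transcription factor STAT3, and its target genes SOCS3 and PIM1. CT cells were parental MCF10A cells, a nonmalignant human mammary epithelial line, labelled as not transformed and grown without supplementation. MC26 was derived without sorting, whereas for M1B26 the cells had first been selected by their surface BMPR1B, a receptor for BMP2. Both were labelled as transformed after long exposure to BMP2 and IL6, and all lines shared the same basal medium with EGF, insulin, hydrocortisone, cholera toxin and horse serum. The labels give 5 ng BMP2 and 10 ng IL6 per microliter, whereas the methods of the study give doses per milliliter and another amount of BMP2, so the dose is uncertain. According to the methods M1B26 was grown on from soft-agar clones that were picked and expanded.

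Ligands of this family signal through complexes that share the subunit gp130, encoded by IL6ST. IL6 binds IL6R and then gp130, LIF pairs LIFR with gp130, and oncostatin M pairs OSMR with gp130. The receptors activate JAK kinases, which phosphorylate STAT3, and STAT3 induces SOCS3, a feedback inhibitor that binds gp130 and JAK. In mammary epithelium the pathway is known for its part in involution and in inflammation-linked growth. The table measured the cells' own RNA, and recombinant IL6 protein in the medium adds no RNA.

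In each line 3 libraries were sequenced, with total counts from 21425118 (CT replicate 2) to 80076597 (CT replicate 3). All 10 basal mammary epithelial markers, among them KRT5, KRT14 and TP63, were detected in each line, with a summed level of 9572 to 11890 CPM (counts scaled to a common library size) in CT, 15650 to 19880 in MC26 and 11330 to 12200 in M1B26. The sum was carried by KRT5 and KRT6A, and single markers moved both ways. KRT14 averaged 54.1 CPM over the CT libraries, 1097 over those of MC26 and 548 over those of M1B26, whereas the epithelial adhesion genes EPCAM (70.4, 14.8 and 72.1 CPM in that order) and CDH1 (76.4, 40.8 and 44.1 CPM) were lower in MC26 or in both. The T cell marker CD3E had no count in any line, and the summed level of 8 leukocyte markers was 15.1 to 20.1 CPM in CT, 34.7 to 36.9 in MC26 and 57.04 to 79.2 in M1B26, nearly all of it CD68 and CD14. The pan-leukocyte marker PTPRC had 4 counts over the CT libraries, 0 over MC26 and 1 over M1B26. LYZ was also at 0 in MC26. All 6 fibroblast markers had some counts, with a summed level of 37.4 to 37.8, 17.1 to 56.8 and 28.5 to 39.9 CPM in that order. They too moved both ways. LUM averaged 0.108, 0.128 and 5.11 CPM and COL1A1 7.73, 9.74 and 15.4 CPM. DCN averaged 29.0, 22.9 and 14.0 CPM and PDGFRB 0.738, 0.511 and 0.489 CPM. In M1B26 against CT the edgeR adjusted p values of DCN and PDGFRB were 0.1295 and 0.147. The 4 endothelial markers, of which CDH5 was at 0 in M1B26, summed to 7.53 to 7.78, 1.02 to 1.39 and 2.84 to 4.91 CPM. The part of these markers in the results below was not tested. In these bulk samples fewer cells with a transcript and less transcript per cell cannot be told apart.

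The promoters of 3 genes are shown because their levels differed at least 2-fold between lines and their windows held a match to a common regulatory motif, given in capitals. They are the 250 bases before a RefSeq start (GRCh38.p14), written 5′ to 3′ on the gene's strand. IL6 lies on the plus strand (chr7:22726950-22727199), and IL11 (chr19:55370464-55370713) and LIFR (chr5:38595406-38595655) on the minus strand.
IL6: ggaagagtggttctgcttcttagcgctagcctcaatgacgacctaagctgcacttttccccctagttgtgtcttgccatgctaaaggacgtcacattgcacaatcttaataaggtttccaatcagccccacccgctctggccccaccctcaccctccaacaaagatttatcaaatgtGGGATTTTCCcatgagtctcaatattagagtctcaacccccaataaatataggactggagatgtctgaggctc
IL11: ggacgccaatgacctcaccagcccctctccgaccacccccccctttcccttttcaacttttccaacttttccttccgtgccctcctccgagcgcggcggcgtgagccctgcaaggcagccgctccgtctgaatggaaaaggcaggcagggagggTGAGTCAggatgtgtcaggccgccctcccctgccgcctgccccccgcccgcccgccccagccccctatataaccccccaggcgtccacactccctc
LIFR: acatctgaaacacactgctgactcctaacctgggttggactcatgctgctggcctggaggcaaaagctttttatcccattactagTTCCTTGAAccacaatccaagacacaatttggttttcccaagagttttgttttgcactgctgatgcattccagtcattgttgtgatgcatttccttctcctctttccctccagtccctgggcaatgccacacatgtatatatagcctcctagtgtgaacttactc
The capitals in IL6 mark GGGATTTTCC, a match to the NF-kB motif (GGG, any NN, then TTTCC) at bases -73 to -64 from the start. Those in IL11 mark TGAGTCA, a match to TGANTCA (AP-1) at -96 to -90, and those in LIFR mark TTCCTTGAA, a match to TTCNNNGAA (STAT) at -165 to -157. A second of the RefSeq starts of LIFR held TTCATCGAA, another STAT match, at -182 to -174. The remaining LIFR window (chr5:38556647-38556896) matched none of the 3 motifs. On either strand the NF-kB motif was present in 1.73% of 35116 such windows, TGANTCA in 6.57% and TTCNNNGAA in 6.57%. These shares are per window, and LIFR had more windows than IL6 or IL11. No other window searched, of IL6R, IL6ST, OSMR, STAT3, SOCS3 or PIM1, matched any of the 3 motifs, which says only that these letters were not in these windows. The SOCS3 windows (chr17:78360926-78361175 and chr17:78359668-78359917) did not cover the 250 bases before its annotated gene start (78360077, minus strand). Nor did the LIFR windows (38608354, minus strand) or the IL6 window (22725884, plus strand) cover those before their annotated gene starts. Those bases were not searched.

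All 10 genes passed the filter on low counts, IL6 only through its level in CT. IL6 is among the genes counted as lower against CT below, and the filter set its direction there. In MC26 against CT 6 of the 10 differed, 2 higher and 4 lower, where 38.7% of all 15717 genes tested did (18.8% higher and 19.9% lower). In M1B26 against CT 7 differed, 2 higher and 5 lower, where 48.9% of all genes did (25.2% higher and 23.7% lower). Between M1B26 and MC26 4 differed, 1 higher and 3 lower in M1B26, where 39.5% of all genes did (21.2% higher and 18.4% lower). Changes of at least 2-fold were seen for 5 of the 10 in MC26 (10.8% of all genes), for 3 in M1B26 (11.7%) and for 1 between the transformed lines (8.17%). The libraries of the lines compared did not overlap for 7, 7 and 4 of the 10 genes in that order, and for 50.3%, 59.0% and 53.5% of all genes. The median log2 fold change of the 10 genes was 0.00, -0.55 and -0.11 in that order, against 0.00 for all genes in each comparison. Both comparisons with CT used the same CT libraries. All p-values given with a fold change are adjusted by Benjamini-Hochberg over all genes tested with the edgeR quasi-likelihood test, and "rose" and "fell" are used for an adjusted p under 0.05.

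**Figure D1:**
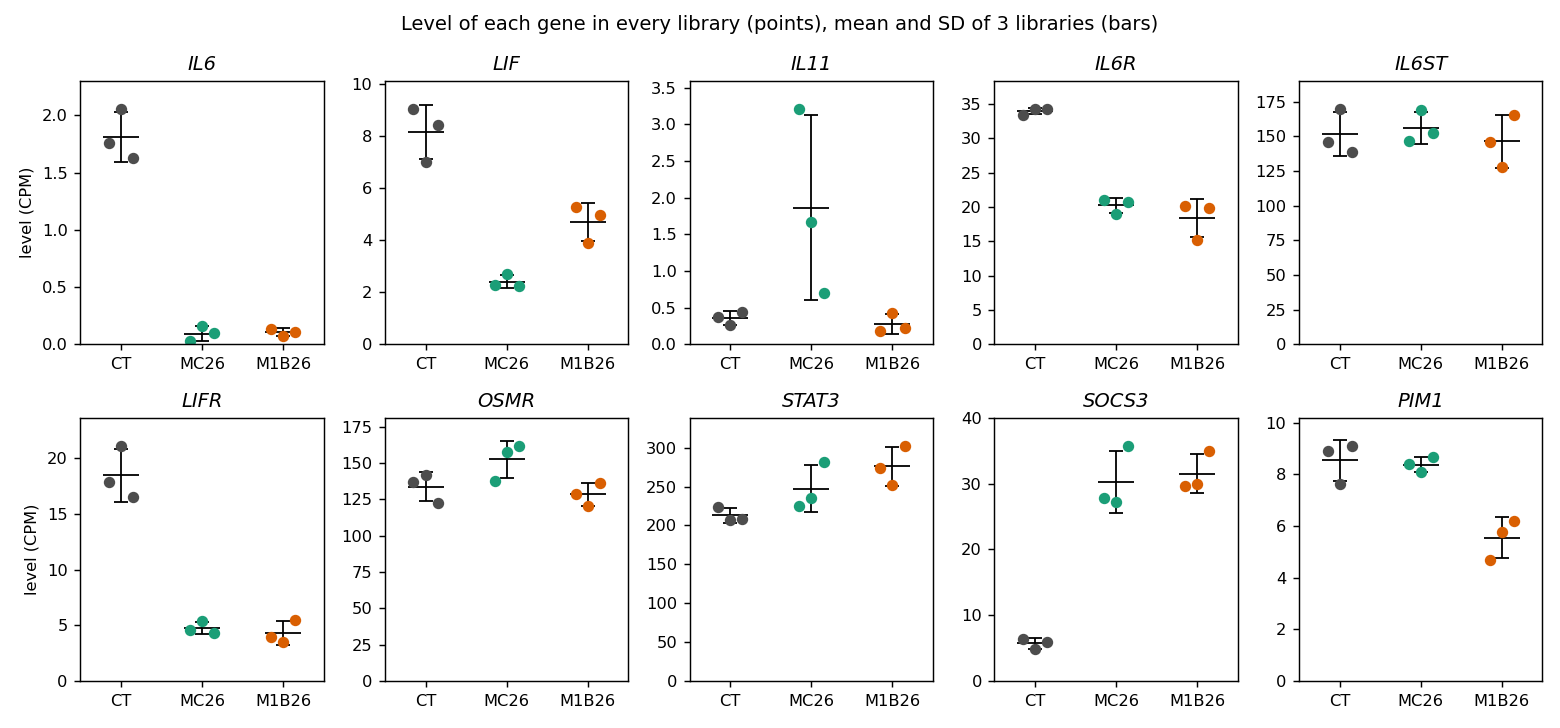
Level of each of the 10 genes in CPM (vertical axes from 0) in the 3 libraries of CT, MC26 and M1B26 (points), with the mean and SD (bars). IL6, IL6R, LIF and LIFR lie lower in both transformed lines than in every CT library, and SOCS3 lies higher in both.

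Among the ligands, IL6 itself was almost lost from both transformed lines. The gene (chromosome 7, 22725884 to 22732002 on GRCh38) encodes the cytokine that these lines received in their medium. Its level was 1.76, 2.05 and 1.62 CPM in CT replicates 1 to 3, from 123, 47 and 133 counts. In MC26 it was 0.0249, 0.157 and 0.0941 CPM, from 1, 6 and 4 counts, and in M1B26 it was 0.135, 0.0710 and 0.111 CPM, from 6, 3 and 6 counts. Every transformed library lay at least 10 times below every CT library, and the transformed lines overlapped. The log2 fold change was -4.26 in MC26 (SE 0.37, edgeR adjusted p 1.04e-05) and -4.04 in M1B26 (SE 0.35, edgeR adjusted p 6.71e-06). IL6 passed the filter on low counts only through its level in CT, which set the direction of any call against CT. These p-values are therefore a description. As a ratio of summed counts, IL6 was 19.1-fold lower in MC26 than in CT (95% exact interval 10.5 to 38.6, counting error only) and 16.3-fold lower in M1B26 (9.70 to 29.4). Between M1B26 and MC26 the ratio was 1.17 (0.503 to 2.82), so a difference of that order was not detectable at these counts. Leaving out MC26 replicate 2 moved the log2 fold change of MC26 to -4.83, and leaving out MC26 replicate 1 moved it to -3.82. Overlapping genes on the opposite strand, STEAP1B and IL6-AS1, had 14 and 13 counts over all libraries, against 329 for IL6.

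LIF, which acts through LIFR and gp130 and is known for keeping stem cells undifferentiated, fell in both lines, and further in MC26. It stood at 9.05, 7.03 and 8.43 CPM in CT, at 2.26, 2.72 and 2.26 in MC26 and at 5.28, 3.88 and 4.99 in M1B26. The 3 lines did not overlap, and M1B26 lay between the others. The log2 fold change was -1.77 in MC26 (SE 0.16, edgeR adjusted p 1.18e-05) and -0.80 in M1B26 (SE 0.15, edgeR adjusted p 0.00111). M1B26 was higher than MC26 by 0.97 (SE 0.16, edgeR adjusted p 8.38e-04). LIF (chromosome 22, 30240453 to 30246759) stood 1.74-fold below CT in M1B26 and 3.41-fold below it in MC26.

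IL11, a gp130 cytokine with a receptor subunit of its own, rose in MC26, and was not past the threshold in M1B26 against CT. CT held 0.372, 0.262 and 0.439 CPM (26, 6 and 36 counts) and M1B26 0.180, 0.426 and 0.222 (8, 18 and 12 counts). MC26 held 3.21, 1.67 and 0.706 CPM (129, 64 and 30 counts), all above the other lines but widely spread, with a coefficient of variation of 67.7%. IL11 (chromosome 19, 55364382 to 55370463) rose by 2.29 on the log2 scale in MC26 (SE 0.49, edgeR adjusted p 0.00399). It was at -0.47 in M1B26 against CT (SE 0.58, edgeR adjusted p 0.533) and at -2.76 in M1B26 against MC26 (SE 0.52, edgeR adjusted p 0.00198). Without MC26 replicate 1, the highest library, these became 1.64 for MC26 (edgeR adjusted p 0.0149) and -2.11 for M1B26 against MC26, and stayed past the threshold.

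Of the receptors IL6R and LIFR fell in both lines against CT, whereas IL6ST and OSMR did not pass the threshold in either. IL6R (chromosome 1, 154405193 to 154469450), the subunit that binds IL6, had 33.4, 34.2 and 34.2 CPM in CT. It had 21.06, 18.9 and 20.7 CPM in MC26 and 20.1, 15.1 and 19.8 in M1B26, all below the CT libraries. The change was -0.75 in MC26 (SE 0.10, edgeR adjusted p 2.64e-04) and -0.89 in M1B26 (SE 0.10, edgeR adjusted p 5.23e-05), with no difference past the threshold between the transformed lines (-0.14, SE 0.10).

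LIFR showed the largest fall among the receptors. It stood at 17.9, 21.1 and 16.5 CPM in CT, at 4.55, 5.39 and 4.31 in MC26 and at 3.92, 3.46 and 5.50 in M1B26. Its log2 fold change was -1.95 in MC26 (SE 0.17, edgeR adjusted p 1.04e-05) and -2.09 in M1B26 (SE 0.17, edgeR adjusted p 4.35e-06), and the transformed lines overlapped (-0.14, SE 0.18). OSMR, the partner of gp130 in the oncostatin M receptor, lies next to LIFR on chromosome 5, beyond a gap of 237503 bases with no tested gene in between. The levels of OSMR were 137, 141 and 123 CPM in CT, 138, 158 and 162 in MC26 and 128, 120 and 136 in M1B26, so that CT overlapped with both transformed lines. It was at 0.19 in MC26 (SE 0.08, edgeR adjusted p 0.0940) and at -0.06 in M1B26 (SE 0.08, edgeR adjusted p 0.597). M1B26 lay below MC26 by a log2 fold change of -0.25 (SE 0.08, edgeR adjusted p 0.0356). That call was lost when MC26 replicate 2, MC26 replicate 3, M1B26 replicate 1 or M1B26 replicate 2 was left out (adjusted p up to 0.128), and with the replicate number as a block (0.0553), and without MC26 replicate 1 the rise in MC26 passed (0.0384). OSMR shares exonic bases with RICTOR on the opposite strand, which had 13473 counts over all libraries against 59468 for OSMR, and whether the counting used strand is not known.

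IL6ST, the gp130 subunit through which all of these ligands signal, held 146, 169 and 139 CPM in CT, 146, 169 and 153 in MC26, and 146, 128 and 165 in M1B26. The 3 lines overlapped throughout. The log2 differences were 0.04 in MC26, -0.05 in M1B26 and -0.09 between them (SE 0.11 for each), and no alternative put IL6ST past the threshold.

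**Figure D2:**
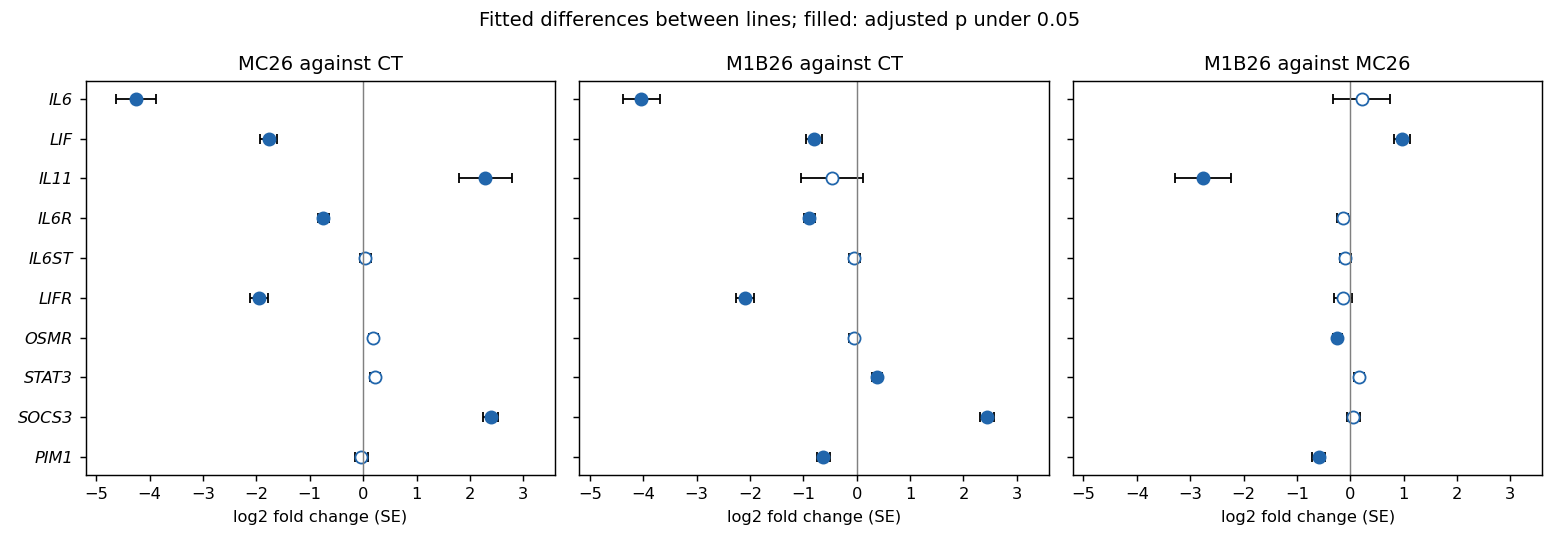
Log2 fold change (horizontal axes) of each gene in the 3 comparisons, with its SE as bars and filled points for an adjusted p under 0.05. IL6, LIFR and SOCS3 have almost the same value in both lines against CT, whereas LIF and IL11 differ between the lines.

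Levels were set per exonic length (FPKM) to order the genes within a line. That length joins all annotated exons of a gene, so the order and the size of the ratios below depend on the annotation. In CT the order was STAT3 (19.03 ± 0.852 FPKM, SD, n = 3), OSMR (18.6 ± 1.37), IL6ST (12.6 ± 1.32), IL6R (4.85 ± 0.0684), PIM1 (2.82 ± 0.260), LIF (2.11 ± 0.267), SOCS3 (2.08 ± 0.298), LIFR (1.52 ± 0.195), IL6 (0.419 ± 0.0509) and IL11 (0.134 ± 0.0334). STAT3 and OSMR overlapped there, as did LIF and SOCS3, and the other neighbours did not. In both transformed lines SOCS3 rose to the fourth place, at 11.1 ± 1.73 FPKM in MC26 and 11.5 ± 1.08 in M1B26, and IL6 was last. SOCS3 and IL6ST overlapped in both lines. STAT3 and OSMR, IL6R and PIM1, and IL11 with LIF and LIFR overlapped in MC26, but not in M1B26. The receptor subunits also changed their proportions. IL6ST exceeded IL6R per length 2.35 to 2.87 times in CT, 4.03 to 5.18 times in MC26 and 4.22 to 4.89 times in M1B26. OSMR exceeded LIFR 11.4 to 12.98 times in CT, 49.7 to 63.7 times in MC26 and 41.9 to 59.01 times in M1B26.

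**Figure D3:**
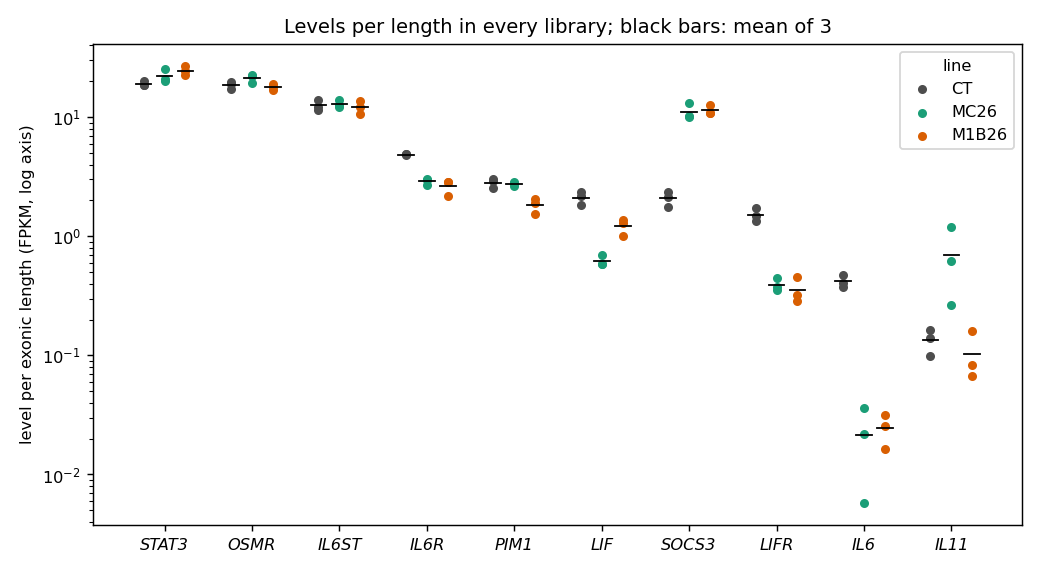
Level per exonic length in FPKM (log axis) of the 10 genes, ordered by their mean in CT, for each library of the 3 lines (points) and the mean of 3 (black bars). SOCS3 moves from 2.08 FPKM (CT) to 11.1 (MC26) and 11.5 (M1B26), next to IL6ST.

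SOCS3, the feedback inhibitor that STAT3 induces, rose about equally in both lines. It stood at 6.40, 4.81 and 5.88 CPM in CT, at 27.9, 27.3 and 35.8 in MC26 and at 29.7, 29.9 and 34.9 in M1B26, and every transformed library lay above every CT library. The log2 fold change was 2.39 in MC26 (SE 0.14, edgeR adjusted p 7.18e-07) and 2.44 in M1B26 (SE 0.14, edgeR adjusted p 3.84e-07), a 5.23-fold and a 5.44-fold rise. The lines did not differ past the threshold (0.06, SE 0.12).

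STAT3 itself moved little. It held 224, 207 and 208 CPM in CT, 225, 235 and 282 in MC26 and 273, 253 and 302 in M1B26. All M1B26 and all MC26 libraries lay above the CT libraries, the lowest of MC26 only just. The log2 fold change was 0.37 in M1B26 (SE 0.09, edgeR adjusted p 0.00756) and 0.21 in MC26 (SE 0.09, edgeR adjusted p 0.0970). M1B26 and MC26 differed by 0.16 (SE 0.09, edgeR adjusted p 0.207), which passed without MC26 replicate 3 (0.26, adjusted p 0.0333).

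Both genes lie on chromosome 17, STAT3 at 42313324 to 42388540 and SOCS3 at 78356778 to 78360077, and the genes of this chromosome were shifted together in M1B26. Over its 843 tested genes the median log2 difference was 0.00 in MC26 against CT, 0.48 in M1B26 against CT and 0.48 in M1B26 against MC26. In M1B26 against CT, 496 of the 843 had a higher value than STAT3 and 13 a higher value than SOCS3. Within 500 kb of STAT3 the 34 tested genes had a median of 0.45, and within 500 kb of SOCS3 the 10 tested genes had one of 0.79. With the shift of 0.475 removed from chromosome 17 genes in the M1B26 libraries, STAT3 was at -0.10 in M1B26 against CT (edgeR adjusted p 0.394), the opposite sign, and at -0.32 against MC26 (edgeR adjusted p 0.0221). SOCS3 still rose by 1.97 in M1B26 against CT, and was then at -0.42 against MC26 (edgeR adjusted p 0.0212). In MC26, where the chromosome was not shifted, SOCS3 was exceeded by 9 and STAT3 by 210 of the 843 genes. The median shifts of the other members' chromosomes (1, 5, 6, 7, 19 and 22) lay between -0.07 and 0.09 in all comparisons.

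**Figure D4:**
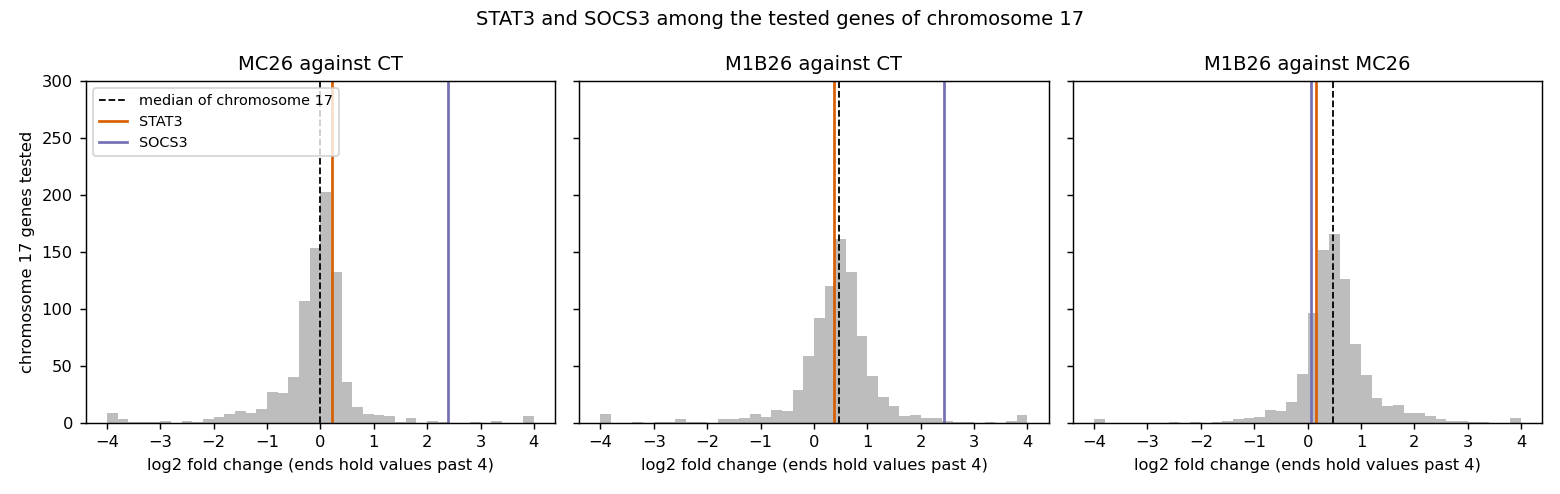
Number of tested chromosome 17 genes (vertical axis) by log2 fold change (horizontal axis) in the 3 comparisons, with the chromosome's median (dashed), STAT3 and SOCS3 as lines. The median moves from 0.00 in MC26 to 0.48 in M1B26, where STAT3 (0.37) lies below it and SOCS3 (2.44) far above it.

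PIM1 (chromosome 6, 37170152 to 37175428), a growth-promoting kinase induced by STAT3, did not follow SOCS3. It held 8.89, 7.64 and 9.10 CPM in CT, 8.41, 8.08 and 8.66 in MC26 and 4.67, 5.75 and 6.21 in M1B26. CT and MC26 overlapped (log2 fold change -0.04, SE 0.12), and all M1B26 libraries lay below both. PIM1 fell by 0.63 on the log2 scale in M1B26 against CT (SE 0.12, edgeR adjusted p 0.00148) and by 0.60 against MC26 (SE 0.12, edgeR adjusted p 0.00321). Its relatives were measured too. In MC26 PIM3 fell by 0.68, and in M1B26 it fell by 0.85 (edgeR adjusted p values 0.00182 and 3.12e-04), and PIM2 changed by -0.33 in MC26 (edgeR adjusted p 0.0118), a call lost without CT replicate 1 (0.0540) or without MC26 replicate 2 (0.0595), and was at -0.16 in M1B26 (edgeR adjusted p 0.141).

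The rest of the pathway was read from lists of other ligands, receptors, kinases, inhibitors and targets. Of 8 other ligands 4 were tested. Cardiotrophin 1 (CTF1) fell by 1.26 in MC26 (edgeR adjusted p 7.99e-04) and was at 0.39 in M1B26 (edgeR adjusted p 0.0954). CLCF1, a ligand of the ciliary neurotrophic factor receptor, rose by 1.02 in MC26 (edgeR adjusted p 0.00401) and was at -0.14 in M1B26. Both differed between M1B26 and MC26, CTF1 by 1.65 and CLCF1 by -1.16 (edgeR adjusted p values 1.45e-04 and 0.00205). CNTF was at 0.45 in MC26 and -0.33 in M1B26, neither past the threshold, and at -0.79 in M1B26 against MC26 (edgeR adjusted p 0.00941). Oncostatin M (OSM), the ligand of OSMR, had 2 counts over the CT libraries and none in the others, and the counts of IL27 and IL31 were 0 throughout. Of the other receptors IL11RA, IL27RA and IL31RA were tested. None passed the threshold in M1B26 against CT, where 48.9% of all genes did, and 3 genes are few to set beside that share. IL31RA, which pairs with OSMR to bind IL31, was higher in M1B26 than in MC26 by 0.38 (edgeR adjusted p 0.00849). IL27RA was at -0.40 in MC26 against CT (edgeR adjusted p 0.0167), lost without CT replicate 1, CT replicate 3, MC26 replicate 1 or MC26 replicate 2 (up to 0.0772). Between M1B26 and MC26 IL27RA was at 0.33 (edgeR adjusted p 0.0387), lost in 6 of 17 alternatives, among them without CT replicate 1, MC26 replicate 1, MC26 replicate 2, M1B26 replicate 1 or M1B26 replicate 3 (up to 0.151). IL11RA, which binds IL11, averaged 3.08 ± 0.238 CPM in the CT libraries, 2.43 ± 0.141 in those of MC26 and 3.24 ± 0.719 in those of M1B26 (SD, n = 3), and was past the threshold in none of the comparisons.

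Signal transducers showed modest changes. Of 7 tested kinases and adaptors 4 rose (57.1%) and 1 fell (14.3%) in MC26, beside 18.8% and 19.9% of all genes, and 1 rose (14.3%) and 2 fell (28.6%) in M1B26, beside 25.2% and 23.7%. The largest of the rises in MC26, GAB1 (0.346, edgeR adjusted p 0.0386), was lost in 6 of 17 alternatives (adjusted p up to 0.1425). JAK1, the main kinase on gp130, averaged 109 ± 7.32 CPM in the CT libraries, 92.7 ± 5.94 in those of MC26 and 76.95 ± 0.718 in those of M1B26 (SD, n = 3). It fell by 0.50 in M1B26 (SE 0.07, edgeR adjusted p 2.04e-04) and by 0.23 in MC26 (edgeR adjusted p 0.0247), the second lost in 5 of 17 alternatives, among them without CT replicate 2, MC26 replicate 1 or MC26 replicate 3 (adjusted p up to 0.0890). GRB2, an adaptor to RAS that also lies on chromosome 17, rose by 0.70 in M1B26 (edgeR adjusted p 4.69e-06). With the shift of that chromosome removed GRB2 was at 0.23 (edgeR adjusted p 0.00727), and its difference from MC26 went from 0.51 to 0.04 (edgeR adjusted p 0.651). Of the 6 other STATs 2 rose (33.3%) and 1 fell (16.7%) in MC26, and 2 rose (33.3%) and 2 fell (33.3%) in M1B26, beside the same shares of all genes. In MC26 STAT4 rose by 0.76, and in M1B26 it rose by 1.40 (edgeR adjusted p values 0.00865 and 1.25e-04), from 1.81 CPM in CT to 3.01 and 4.69. STAT5A and STAT5B lie within 500 kb of STAT3, and STAT5B was at 0.33 in M1B26 (edgeR adjusted p 9.45e-04) and at -0.25 in MC26 (edgeR adjusted p 0.00677). With the shift removed its value in M1B26 was -0.15 (edgeR adjusted p 0.0556), the opposite sign.

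Of 14 other inhibitors tested, 3 rose and 3 fell in MC26 (21.4% each, near the 18.8% and 19.9% of all genes). In M1B26 2 rose (14.3%) and 4 fell (28.6%), beside 25.2% and 23.7%. In MC26 SOCS6 fell by 0.53, and in M1B26 it fell by 0.55 (edgeR adjusted p values 3.47e-04 and 1.73e-04). SOCS1 was at 1.08 in MC26 against CT (edgeR adjusted p 0.0396), but lost the threshold in 9 of 16 alternatives (adjusted p up to 0.138), among them leaving out 7 of the 9 libraries one at a time. PIAS1, which restrains STAT binding to DNA, fell in MC26 by 0.52 and in M1B26 by 0.55 (edgeR adjusted p values 6.55e-04 and 2.58e-04), and the phosphatase PTPN1 rose by 0.56 and by 0.36 (edgeR adjusted p values 1.65e-04 and 0.00193). ADAM17, a protease that sheds IL6R, was at 0.26 in M1B26 (edgeR adjusted p 0.0144), lost without CT replicate 3 (0.0543) or M1B26 replicate 3 (0.0592) and with total counts alone (0.113).

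Of 35 listed STAT3 target genes other than the members, 26 were tested. In MC26 against CT 9 rose (34.6%) and 4 fell (15.4%), beside 18.8% and 19.9% of all genes. In M1B26 against CT 11 rose (42.3%) and 3 fell (11.5%), beside 25.2% and 23.7%. Their median log2 fold change was 0.16 in MC26 and 0.34 in M1B26. The count in MC26 moved from 13 to 8 without CT replicate 1 and to 7 without MC26 replicate 2. Over the libraries left out the rises numbered 7 to 10 and the falls 0 to 7, with 1 fall left without CT replicate 1, CT replicate 3 or MC26 replicate 1, none without MC26 replicate 2 and 7 without MC26 replicate 3. In M1B26 against MC26 6 rose (23.1%) and 8 fell (30.8%), beside 21.2% and 18.4% of all genes, and the count went from 14 to 9 without MC26 replicate 2. JUNB, an AP-1 subunit, had the largest rise in MC26, by 1.67 (SE 0.13, edgeR adjusted p 4.69e-06), from 48.5 ± 10.8 CPM in CT to 156 ± 5.30 (SD, n = 3). LRG1, a secreted acute-phase glycoprotein, had the largest rise in M1B26, by 1.66 (SE 0.32, edgeR adjusted p 0.00156), from 1.57 ± 0.130 to 4.96 ± 2.22 CPM. SERPINA3, an acute-phase protease inhibitor, had the largest fall in MC26, by 2.23 (SE 0.60, edgeR adjusted p 0.0128), but its 3 MC26 libraries ran from 3.66 to 29.8 CPM and the call was lost without MC26 replicate 2 (0.0542). MUC1, a membrane mucin, fell by 1.68 in M1B26 against CT and by 1.70 against MC26 (SE 0.27 for each, edgeR adjusted p values 4.33e-04 and 6.97e-04). SAA2 was at 1.66 in M1B26 against MC26 (edgeR adjusted p 0.0202), a call lost without MC26 replicate 1, MC26 replicate 2 or M1B26 replicate 3, and its reads cannot be told apart with certainty from those of its near-identical copy SAA1.

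**Figure D5:**
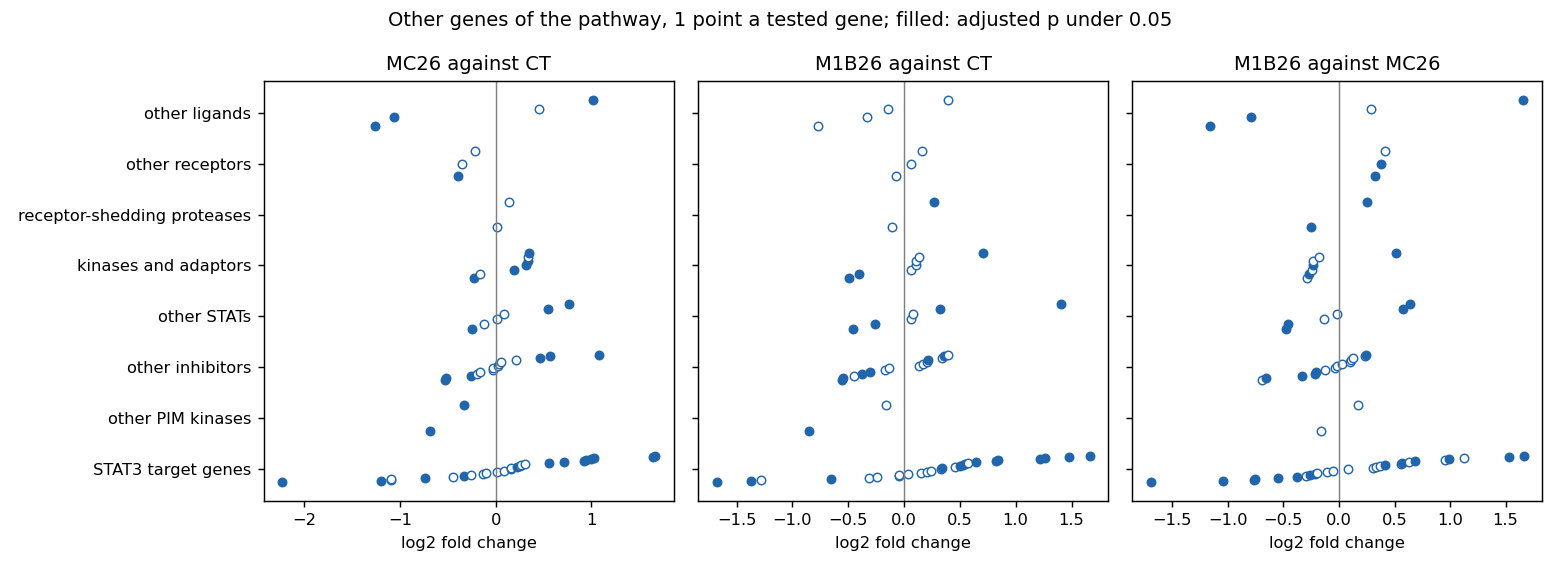
Log2 fold change (horizontal axes) of each tested gene of the pathway lists in the 3 comparisons, 1 point a gene, filled for an adjusted p under 0.05. In every comparison the STAT3 target genes spread to both sides of 0, from -2.23 (SERPINA3) to 1.67 (JUNB) in MC26 and from -1.68 (MUC1) to 1.66 (LRG1) in M1B26.

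Genes with the pattern most like 3 of the members were listed by Pearson's correlation of log2 CPM over the 9 libraries, which share the difference between lines and so are a description. For STAT3 they were ETS2 (0.973), LRG1 (0.973) and S100A9 (0.969), and 4 tested genes reached 0.95. For SOCS3 they were EPAS1 (0.998), RP1 (0.992) and PCDH7 (0.992), and 167 genes reached 0.95. For IL6 they were SYN2 (0.991), ABTB2 (0.990) and PRKCA (0.988), and 220 genes reached 0.95.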

How the data were processed

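The 9 libraries were made from polyadenylated RNA and read from both ends. The authors deposited raw counts per gene symbol, for which they aligned reads to GRCh38 with STAR 2.7.3a and GENCODE v33. Salmon 1.1.0 is also named, but the table holds whole numbers and non-coding genes, so the counting program and its use of strand are not given in the sources used here. Each title gave the line and the replicate number, but not whether the replicates were separate cultures. The p-values therefore measure the spread between libraries of a line. The spread between independent derivations of a transformed line was not measured.

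Lowly counted genes were removed by filterByExpr at a minimum count of 10. TMM scaling followed (factors 0.968 to 1.07), and edgeR 4.0.16 in R 4.3.3 fitted one quasi-likelihood model over the 9 libraries, in which line was the sole covariate. Tests were 2-sided with a threshold of 0.05. The SE is the absolute log2 fold change divided by the square root of F. CPM used the scaled library sizes, and 1 count was worth 0.0122 to 0.0437 CPM. Intervals cover counting error only. FPKM divided CPM by the exonic length in GENCODE v44, which matched 36923 symbols with 98.8% of all counts. Promoters are from RefSeq (GRCh38.p14), which matched 9 of the 10 genes. LIF had no entry. Scripts were tested on simulated data. No column of the table was left out.

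The members and lists were chosen with earlier results of these data known. The 10 members were named whatever their values. Of each list with more than 4 tested genes the largest called rise and fall per comparison could be named, and of shorter lists any tested gene. Markers were named as examples, and the 3 genes most correlated with IL6, STAT3 and SOCS3 were named. Results were recomputed without the filter, keeping genes averaging 50 counts or more, under total counts or RLE factors, by DESeq2 1.42.0, over the 6 libraries of a comparison alone, blocking on the replicate number, with an offset of 0.475 for chromosome 17 in M1B26, and each library left out. Some listed genes are not reported here.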

Additional observations from a re-analysis of the deposited data

Results flagged for a closer look

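The change from CT differed between the transformed lines for 4 of the 10 genes by the direct test of M1B26 against MC26 (edgeR quasi-likelihood test, adjusted over all genes). That is near the 39.5% of all genes called in this comparison, and the libraries of these lines did not overlap for 53.5% of all genes. IL11 differed by -2.76 on the log2 scale (adjusted p 0.00198), higher in all 3 MC26 libraries than in all 3 M1B26 libraries. LIF differed by 0.97 (adjusted p 8.38e-04), higher in all 3 M1B26 libraries. PIM1 differed by -0.60 (adjusted p 0.00321), lower in all 3 M1B26 libraries. OSMR differed by -0.25 (adjusted p 0.0356), lower in all 3 M1B26 libraries than in MC26. Groups of 3 libraries were too small to single out one library.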

How the results depend on the processing

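Of 503 refits of single members, 484 kept the direction and the side of the threshold, 5 lost it, 2 gained it and 12 changed sign. The losses were all of OSMR in M1B26 against MC26, 4 from leaving out a library and 1 with the replicate number as a block (-0.25, edgeR adjusted p 0.0553), and the gains were of OSMR and STAT3. Sign changes with the chromosome 17 offset were those of STAT3 in M1B26 against CT (-0.10) and against MC26 (-0.32), and of SOCS3 against MC26 (-0.42). The offset subtracts the chromosome's median by construction. The other sign changes were in differences past the threshold in neither fit: IL6ST in MC26 against CT (-0.037 with total counts, -0.008 without CT replicate 3 and -0.013 without MC26 replicate 2, up to 0.133), IL6ST in M1B26 against CT (0.032 without CT replicate 2 and 0.046 without M1B26 replicate 2, down to -0.143 when a library was left out and -0.145 with total counts), PIM1 in MC26 against CT (0.019 without CT replicate 3), IL6 in M1B26 against MC26 (-0.216 without MC26 replicate 1, up to 0.793 without MC26 replicate 2) and SOCS3 in that comparison (-0.014 and -0.023 without MC26 replicate 2 and M1B26 replicate 3, up to 0.193 without MC26 replicate 3).

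When single libraries were left out, the count of listed pathway genes called ranged from 20 to 35 in MC26 against CT (33 with all libraries, 21 without CT replicate 1 or MC26 replicate 1, 20 without MC26 replicate 2), and from 21 to 40 in M1B26 against MC26 (33 with all, 21 without MC26 replicate 2). With all libraries, 6081 of 15717 genes tested (38.7%) were called in MC26 against CT. Leaving out CT replicate 1 brought this to 4524, MC26 replicate 1 to 4545 and MC26 replicate 2 to 4852. The drop in that comparison was therefore not confined to the listed genes. The cause was not tested for either comparison. IL6 and IL11 were not tested under the mean of at least 50 counts. With total counts alone 35.8% of the calls in MC26 and 39.6% in M1B26 against CT were higher, beside 48.5% and 51.5% with TMM. Equal replicate numbers did not pair the libraries (correlations -0.162 to 0.300). With the number as a block the members called were 6, 7 and 3 in the order above. Depth limits IL6 and IL11, with 1 to 18 counts in some libraries.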
